A study of Mus musculus with 9 samples.

Results

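The matrix metalloproteinase genes (Mmp), the genes of the secreted ADAMTS proteases (Adamts) and the genes of the tissue inhibitors of metalloproteinases (Timp) were followed in lists of open chromatin from mouse lung endothelium. They were chosen by symbol alone: a protein-coding gene of the mm10 gene table whose name is Mmp, Adamts or Timp followed by a number. The rule gave 46 genes of 21883, of which 23 were Mmp, 19 Adamts and 4 Timp genes. The assay was ATAC-seq: a transposase inserts adapters where DNA is free of tightly packed nucleosomes, and stretches with many insertions are called as peaks. Endothelial cells, the cells that line blood vessels, were sorted by fluorescence from mouse lungs at 3 ages (infant, young adult, mature adult), and each age had 3 libraries. The labels name no treatment, genotype or strain and no age in days. They also leave unsaid whether libraries of 1 age are from different animals, so a p-value here sets a difference against the spread of libraries, which may be technical. The title of the study asks how endothelial cells pass from a state in which vessels grow to a resting state.

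Matrix metalloproteinases are zinc enzymes that cut collagens, laminins, elastin and other proteins around the cell, and they are made as inactive precursors that lose a blocking segment when activated. ADAMTS enzymes are related secreted proteases with thrombospondin repeats. Some cut proteoglycans such as versican, others trim the ends of new collagen molecules, and one cuts von Willebrand factor. TIMP proteins bind the active site of these enzymes and block it. In growing vessels, proteases of these families loosen the basement membrane so that sprouts can advance, and inhibitors made by endothelial and perivascular cells limit the process.

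The 9 lists held 59793 to 94646 distinct peaks. Infant lists averaged 91182 ± 3058 (SD, n = 3), young adult lists 67922 ± 413 (SD, n = 3) and mature adult lists 62369 ± 2298 (SD, n = 3). The lists give positions only, so sequencing depth is unknown, a longer list can come from deeper sequencing, and the lack of a peak does not prove closed chromatin. Between 90.5% and 93.6% of the peaks of a library were given to a gene, namely the gene around the centre of the peak or, failing that, the one whose end was closest, up to 100 kb away. A gene's peak number was tested after scaling to the library's total, as log2(number + 0.5) with limma over all 9 libraries, and a gene was called at a Benjamini-Hochberg adjusted p below 0.05. The adult lists being shorter, a gene with an equal number of peaks at all ages rises as a share of its list. Of 5141 genes called in young adults, 3786 were higher and 1355 lower after scaling, against 161 higher and 2527 lower without scaling. In mature adults the split was 4416 higher and 2014 lower after scaling, and 206 and 4249 without it. The median log2 change over all 14507 genes tested moved with the scaling, from -0.25 to 0.13 in young and from -0.31 to 0.14 in mature adults. Changes are therefore given on both scales, and "lower on both scales" means called lower with and without scaling. The libraries young adult 3 and mature adult 1 had narrower peaks, of 487 and 495 bp on average against 530 to 564 bp in the others.

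The most direct data on these genes are peaks over the promoters themselves. RefSeq promoter windows of GRCm38.p6, the assembly of mm10, reach from 250 bases before to 50 bases after an annotated start, and 35 such windows matched 32 of the 46 genes by symbol. Of these windows, 4 were overlapped by a peak in each infant library but none of the adult ones, which is 11.4% against 2.14% of 21262 windows of all genes. The 4 windows belong to Adamts2, Adamts20, Mmp25 and Timp4. A further 4 genes had a promoter peak in all 3 infant and in no mature adult library: Adamts3 (2 of 3 young adult libraries), Mmp28 (2 of 3), Adamts18 (1 of 3) and Mmp23 (1 of 3). How often windows of all genes show this looser pattern was not counted, and the mature adult lists were the shortest. The bases before the start of 6 of these 8 genes are printed because their promoters lost the called peak with age. Each runs 5′ to 3′ along the gene's strand, and capitals mark every match to 1 of 9 short motifs searched on both strands.
Adamts2, chr11:50601835-50602084, plus strand: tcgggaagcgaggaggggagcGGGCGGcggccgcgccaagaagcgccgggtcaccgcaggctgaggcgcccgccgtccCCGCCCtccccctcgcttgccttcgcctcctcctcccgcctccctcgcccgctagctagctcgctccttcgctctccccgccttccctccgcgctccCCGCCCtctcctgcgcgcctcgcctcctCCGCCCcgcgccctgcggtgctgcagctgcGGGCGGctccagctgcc
Mmp25, chr17:23645270-23645519, minus strand: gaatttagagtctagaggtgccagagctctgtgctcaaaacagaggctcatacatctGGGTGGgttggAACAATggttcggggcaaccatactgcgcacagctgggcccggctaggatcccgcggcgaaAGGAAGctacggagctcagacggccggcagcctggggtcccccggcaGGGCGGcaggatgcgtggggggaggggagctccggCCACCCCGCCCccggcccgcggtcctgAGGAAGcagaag
Adamts20, chr15:94404351-94404600, minus strand: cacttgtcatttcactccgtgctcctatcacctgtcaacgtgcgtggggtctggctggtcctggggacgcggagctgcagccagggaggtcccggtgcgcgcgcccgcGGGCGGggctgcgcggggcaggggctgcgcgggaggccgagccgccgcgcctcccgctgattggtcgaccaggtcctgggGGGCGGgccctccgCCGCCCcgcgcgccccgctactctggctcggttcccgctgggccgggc
Timp4, chr6:115252206-115252455, minus strand: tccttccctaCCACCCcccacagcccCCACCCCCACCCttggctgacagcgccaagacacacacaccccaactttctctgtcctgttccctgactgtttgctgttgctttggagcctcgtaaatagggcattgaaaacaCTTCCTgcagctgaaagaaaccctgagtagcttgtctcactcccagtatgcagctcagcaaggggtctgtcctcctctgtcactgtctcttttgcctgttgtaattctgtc
Mmp28, chr11:83463041-83463290, minus strand: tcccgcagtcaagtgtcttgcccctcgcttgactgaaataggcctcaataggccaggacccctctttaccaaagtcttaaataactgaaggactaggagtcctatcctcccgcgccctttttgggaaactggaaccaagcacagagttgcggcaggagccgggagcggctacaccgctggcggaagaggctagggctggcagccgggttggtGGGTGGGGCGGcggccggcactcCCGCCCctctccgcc
Adamts18, chr8:113848840-113849089, minus strand: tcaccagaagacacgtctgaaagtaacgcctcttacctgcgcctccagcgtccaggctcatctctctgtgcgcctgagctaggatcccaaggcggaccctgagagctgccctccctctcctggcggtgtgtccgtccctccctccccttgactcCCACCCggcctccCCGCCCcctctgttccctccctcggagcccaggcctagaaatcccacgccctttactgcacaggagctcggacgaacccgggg

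The motifs were those of AP-1 (the letters TGANTCA), ETS factors (the letters AGGAAG), factors of the GATA family (the letters AGATAA), SOX factors (the letters AACAAT), KLF factors (the letters CCACCC), SP factors (the letters GGGCGG), forkhead factors (the letters TGTTTAC) and TCF/LEF (the letters CTTTGAA) and the TATA box (the letters TATAAA). KLF and SP matches can overlap, as they do near the end of the Mmp25 stretch. The stretches of Adamts2 and Adamts20 are dense in CpG, with 34 and 32 CpG in the 250 bases and 78.0% and 76.4% G or C. Their marked letters are all SP matches. The region over the Adamts20 window is centred 27826 bp inside the gene body of the gene table, so this annotated start is an internal one there. Timp4 differs, with 2 CpG, 53.6% G or C, no SP match and KLF and ETS matches only. Mmp25 carries 17 CpG and Mmp28 and Adamts18 15 each, against a median of 10 over all windows. Promoters that changed with age thus ranged from CpG-rich to CpG-poor. A match shows the letters, not a bound factor.

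A second group of promoters had no peak at any age. This was so for 14 of the 35 windows, or 40.0% against 39.9% of all windows. Of the 14, 12 lie in 1 stretch of chromosome 9 from 7272514 to 7699585 (mm10), where 10 Mmp genes follow each other over 427 kb. The others are the windows of Mmp21 and Mmp24. AP-1 letters, the motif of the Fos and Jun factors, stood in 8 of the 35 windows (22.9%) against 6.13% of all windows, and all 8 were in this cluster. The sequences are printed with 12 bases on either side to show the placing of the motif, in capitals, in the collagenase, stromelysin and matrilysin genes. These stretches were chosen after their values were seen.
Mmp13, chr9:7272467-7272497, plus strand: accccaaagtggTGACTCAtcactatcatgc
Mmp12, chr9:7347318-7347348, plus strand: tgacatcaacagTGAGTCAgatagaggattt
Mmp1b, chr9:7388101-7388131, minus strand: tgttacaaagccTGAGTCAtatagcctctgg
Mmp3, chr9:7445764-7445794, plus strand: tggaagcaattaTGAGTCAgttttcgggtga
Mmp1a, chr9:7464056-7464086, plus strand: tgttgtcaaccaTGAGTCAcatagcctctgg
Mmp10, chr9:7502267-7502297, plus strand: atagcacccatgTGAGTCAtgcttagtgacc
Mmp20, chr9:7628124-7628154, plus strand: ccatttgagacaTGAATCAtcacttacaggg
Mmp7, chr9:7692015-7692045, plus strand: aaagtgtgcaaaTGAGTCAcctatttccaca

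The AP-1 match began 35 bases before the start site in Mmp13 and 95 bases before it in Mmp20. TATA letters stood in 9 member windows (25.7% against 11.6% of all), and 7 of the 8 AP-1 windows held both. No AP-1 window of the cluster was overlapped by a peak in any of the 9 libraries. Over all genes, 797 of 1304 windows with AP-1 letters (61.1%) had no peak either. Of 16 member windows with SP letters 1 was without a peak (6.25%, against 12.8% of all windows with them), and 8 had a peak in all 9 libraries (50.0% against 74.1%). The other motifs were found in member and in all windows in 40.0% and 28.5% (ETS), 8.57% and 8.81% (GATA), 11.4% and 8.22% (SOX), 28.6% and 30.2% (KLF), 45.7% and 42.6% (SP), 5.71% and 2.62% (forkhead) and 2.86% and 4.05% (TCF/LEF).

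Promoters open in every library numbered 10 of 35 (28.6%), fewer than the 49.0% of all windows. They were those of Adamts1, Adamts9, Adamts12, Adamts14, Adamts17, Mmp11, Mmp15, Timp1, Timp2 and Timp3. Adamts13 and Mmp14 had a promoter peak in 8 libraries, both lacking it in mature adult replicate 1, a library with narrow peaks. The extent of cover also differed by age at some of them. In the Timp1 window, peaks covered all 300 bases in each infant library, and 216, 242 and 214 bases in young adults and 216, 244 and 236 in mature adults. The Mmp14 window was covered over 300, 293 and 287 bases in infants, 181, 247 and 150 in young adults and 0, 214 and 116 in mature adults. At Adamts1, Adamts9, Adamts12, Adamts14 and Adamts17 the window was covered in full in all 9 libraries. The start of a gene and its peak number could thus part ways: Adamts12 and Adamts17 kept a covered promoter while their peak numbers fell, as described next.

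**Figure D1:**
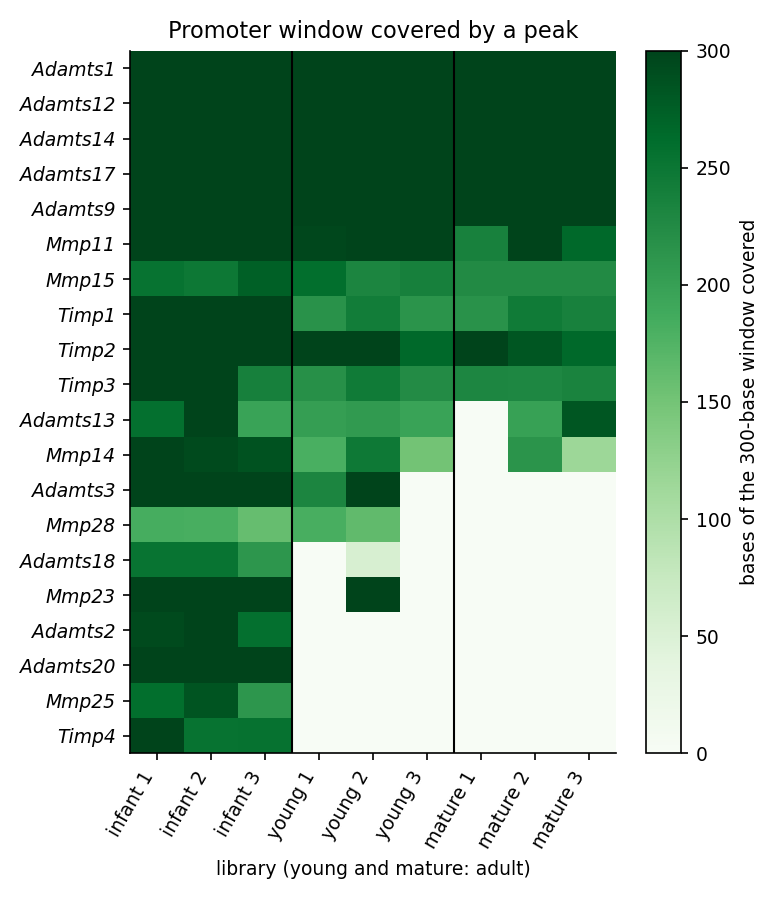
Bases of each 300-base RefSeq promoter window covered by peaks (colour scale, 0 to 300 bases) in the 9 libraries (columns, grouped by age), for the 20 genes with a promoter peak in any library. The upper 10 rows are covered in all 9 libraries, and the lowest 4 rows, Adamts2, Adamts20, Mmp25 and Timp4, in the 3 infant libraries and in none of the adult ones.

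Summed over the family, the 19 Adamts genes held 189, 173 and 168 peaks in infants, 107, 119 and 102 in young adults and 89, 98 and 96 in mature adults. Infant and adult libraries did not overlap, and per 10000 peaks of the list the means were 19.4 ± 0.547, 16.1 ± 1.19 and 15.1 ± 0.205 (SD, n = 3 each). This fall was not shared by all Adamts genes. Of 18 tested, 6 were lower on both scales in young and 7 in mature adults (9.26% and 13.9% of all genes). These include 2 that reached the test through the infant libraries alone. The median scaled log2 change of the 18 was -0.01 and -0.55, beside 0.13 and 0.14 over all genes. Both medians of the 18 include the same 2 genes, which can only lower them, and medians without them were not computed. The 23 Mmp genes held 78, 72 and 74, then 51, 54 and 58, then 52, 49 and 49 peaks. As a share of the list their ranges overlapped, with a mean of 8.19 ± 0.172 per 10000 in infants and 8.03 ± 0.580 in mature adults (SD, n = 3 each) and single young adult values between 7.52 and 8.59. The 4 Timp genes held 26, 26 and 23 peaks in infants, 26, 25 and 22 in young adults and 22, 25 and 23 in mature adults. Their numbers overlapped at all ages, and their share of the list was larger in adults, at 3.58 ± 0.295 and 3.74 ± 0.135 per 10000 against 2.74 ± 0.150 (SD, n = 3 each). From infant to mature adult the number of peaks was multiplied by 0.534 for Adamts, 0.670 for Mmp and 0.933 for Timp genes, beside 0.684 for the whole list.

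Marker genes of cell types were counted in the same libraries, and those of fibroblasts and mural cells fell most in number. The 10 fibroblast and mural cell markers held 65 to 73 peaks in infant, 28 to 32 in young adult and 26 to 28 in mature adult libraries. Of 8 tested, 6 fell on both scales in young and 4 in mature adults, where 9.26% and 13.9% of all genes tested did. Col1a1, a fibrillar collagen gene, had 10, 9 and 8 peaks in infants and 1 or 2 per adult library, Lum had 0 in all 9 libraries, and Dcn had 1 in infant replicates 1 and 3 and 0 in the other libraries. The 10 endothelial markers held 204 to 217, 178 to 196 and 163 to 193 peaks. By the limma test 0 of 10 fell after scaling (9.34% and 13.9% of all genes), nor did any at an unadjusted p below 0.05. After scaling 3 rose in young and 7 in mature adults, where 26.1% and 30.4% of all genes tested rose. Without scaling 2 of the 10 fell in young and 3 in mature adults, where 17.4% and 29.3% of all genes tested did. Unscaled, 0 of the 10 rose (1.11% and 1.42% of all genes), also at an unadjusted limma p below 0.05. Leukocyte markers held 12 or 13, 8 to 14 and 8 to 10 peaks, with Lyz2, Itgam, Cd68 and S100a8 at 0 throughout. Per 10000 peaks the leukocyte markers averaged 1.35, 1.67 and 1.40. After scaling 0 of 3 tested were called at either adult age (35.4% and 44.3% of all genes), with 1 at an unadjusted limma p below 0.05 in young adults. Epithelial markers held 26 to 32, 15 to 21 and 15 or 16, with Sftpc at 0. Of 5 tested, 0 fell on both scales in young and 1 in mature adults (9.26% and 13.9% of all genes). After scaling 1 rose at each age (26.1% and 30.4%), with an equal number of peaks in every library compared. The part of fibroblast and mural cells in the falls described here was not tested. In lists from sorted bulk cells, fewer cells of a type and fewer open sites per cell cannot be told apart.

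**Figure D2:**
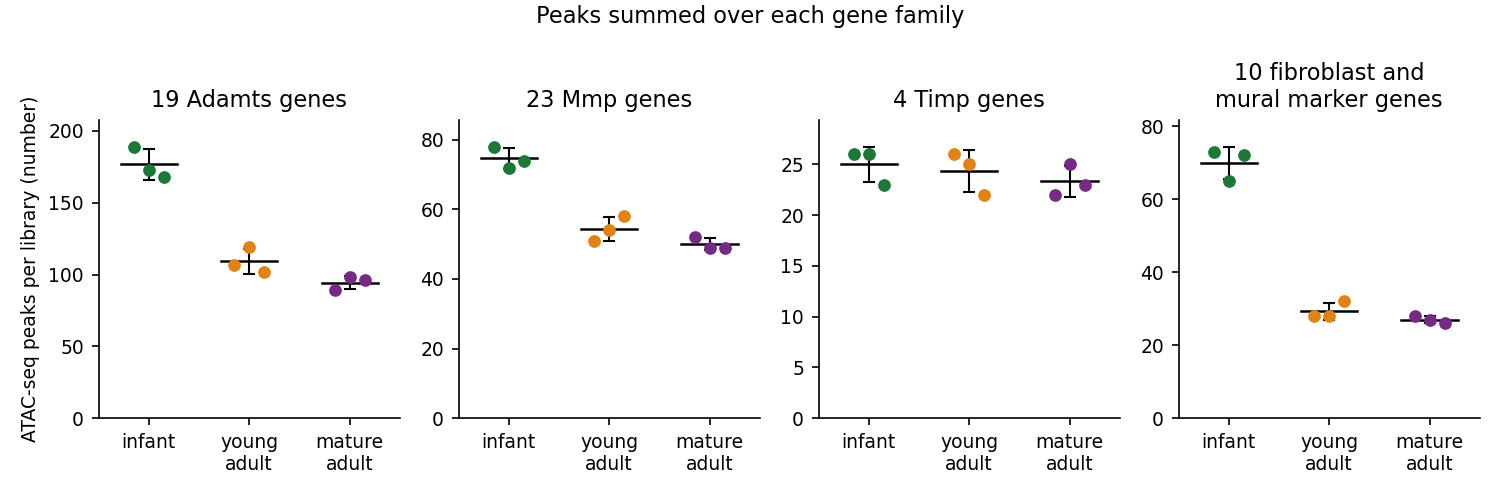
ATAC-seq peaks per library (vertical axis, number) summed over the Adamts, Mmp and Timp genes and over 10 fibroblast and mural marker genes, by age. Points are libraries, lines the mean and bars the SD of 3. The Adamts points fall from 168 to 189 in infants to 89 to 119 in adults, and the Mmp points from 72 to 78 to 49 to 58. The marker points fall as well, and the Timp points overlap at all ages.

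Of the 46 genes, 35 reached the mean of 1 peak needed for the test: 18 Adamts, 15 Mmp and 2 Timp genes. Adamts15 and Adamts16 reached it through the infant libraries alone, so that a fall was the only outcome open to them. In young adults, 8 members were lower on both scales, where 9.26% of all genes tested were. By the limma test 0 were higher on both scales, where 1.11% were, and 0 rose without scaling at an unadjusted p below 0.05. The 8 were Adamts2, Adamts8, Adamts12, Adamts15, Adamts16, Adamts17, Mmp8 and Mmp25. In mature adults 9 were lower on both scales, against 13.9% of all genes, and by the limma test 0 were higher on both, against 1.42%, again with 0 unscaled rises at an unadjusted p below 0.05. Adamts5 and Mmp17 joined this group and Mmp8 left it. The 7 called lower on both scales at both adult ages were 6 Adamts genes and Mmp25, where 7.95% of all genes tested were. Adamts15 and Adamts16 are among the 8, the 9 and the 7, and with a fall as their only outcome they add no support to these counts. Both comparisons use the same infant libraries, so they do not support each other. After scaling, 13 members were called in young adults (35.4% of all genes), 8 of them lower (9.34%) and 5 higher (26.1%). In mature adults 15 were called (44.3%), 9 of them lower and 6 higher (30.4%), while without scaling 12 (17.4%) and 15 (29.3%) were lower. The median change of the 35 was -0.01 and -0.32 after scaling, beside 0.13 and 0.14 over all genes, and -0.40 and -0.74 without it, beside -0.25 and -0.31. These medians of the 35 include Adamts15 and Adamts16, which can only lower them, and medians without these genes were not computed.

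Adamts2 encodes the main procollagen N-proteinase, which removes the amino-terminal extension of fibrillar procollagens, and Adamts3 and Adamts14 encode its nearest relatives. Adamts2 (chr11:50602085-50807573) had 19, 18 and 11 peaks in infants, 2, 3 and 1 in young adults and 2, 1 and 1 in mature adults. All infant libraries lay far above all adult ones. The scaled log2 change was -2.38 ± 0.379 (SE) in young adults (limma adjusted p = 0.00173) and -2.70 ± 0.379 in mature adults (limma adjusted p = 0.000766), with -2.77 and -3.18 unscaled. It stayed called in all 21 alternatives at both ages. Adamts14 had 8, 8 and 9 peaks in infants, 8, 6 and 5 in young adults and 4, 6 and 5 in mature adults, and passed neither test after scaling, with a scaled log2 change of -0.19 in mature adults. Unscaled it was lower there (-0.70, limma adjusted p = 0.0350). Adamts3 had 3, 2 and 4, then 2, 3 and 4, then 2, 1 and 0 peaks, and its 3 ages overlapped.

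At Adamts2 the peaks merged across libraries into 21 regions, of which 8 were open in the infant libraries alone, with a peak in each of the 3. These lay from 14110 bp upstream of the start site to 115532 bp inside the gene, and 1 of them covered the promoter (chr11:50601603-50602161). The broadest of them, at chr11:50621992-50622973 within the gene body, measured 970, 511 and 796 bp in the 3 infant libraries. The single region with a peak in all 9 libraries (chr11:50769033-50769809), 167336 bp from the start, was narrower in adults or as wide, with 609, 607 and 776 bp in infants, 607, 600 and 533 in young adults and 604, 594 and 571 in mature adults.

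**Figure D3:**
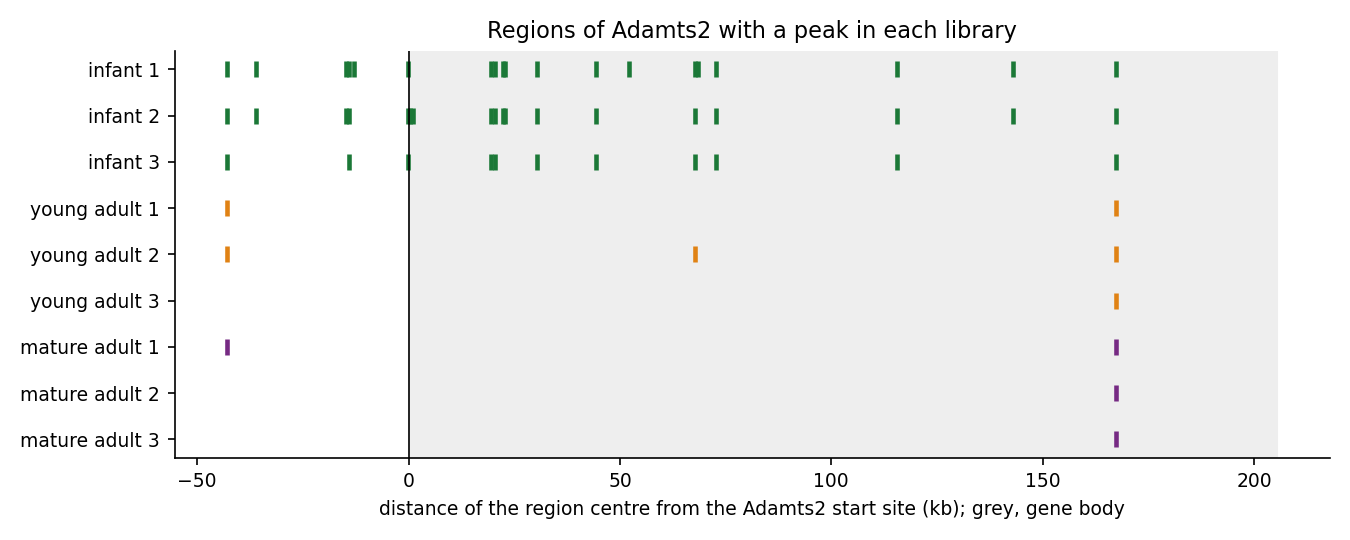
Merged regions of Adamts2 with a peak in each library (rows), placed by the distance of their centre from the start site in kb (horizontal axis), with the gene body in grey. The infant rows carry ticks across the upstream stretch and the gene, and the adult rows carry 1 to 3 ticks, of which the one farthest to the right is shared by all 9 libraries.

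The proteoglycan-cutting group (Adamts1, Adamts4, Adamts5, Adamts8, Adamts9, Adamts15 and Adamts20), whose known substrates include versican and aggrecan, was split. Adamts8 had 5, 5 and 6 peaks in infants, 1 in each young adult library and 1, 2 and 1 in mature adults. No adult library reached the infant range, and the scaled log2 change was -1.60 ± 0.198 (SE) in young adults (limma adjusted p = 0.000653) and -1.26 ± 0.198 in mature adults (limma adjusted p = 0.00146). Its neighbour Adamts15, 20.1 kb away on chromosome 9, had 5, 3 and 5 peaks in infants, 0 in all young adult libraries and 1, 0 and 0 in mature adults. With so many zeros its fitted change depends on the 0.5 that is added, and its limma adjusted p of 0.00170 and 0.00495 supports no fall, since the infant libraries alone brought it into the test. Both genes had an infant-only region over one end: chr9:30942458-30943479 in Adamts8, of 925, 990 and 840 bp, and chr9:30922167-30922795, whose centre lies 29 bp outside the end of Adamts15. With the widest 59793 peaks of every library Adamts8 was no longer called, with log2 changes of -0.25 at both ages.

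Adamts5, the major aggrecanase of cartilage in mice, had 3, 3 and 4 peaks in infants, 1, 2 and 2 in young adults and 1, 1 and 0 in mature adults. The scaled change was -0.50 ± 0.486 (SE) in young adults, which did not pass (limma adjusted p = 0.466), and -1.50 ± 0.486 in mature adults (limma adjusted p = 0.0406). A region over its end (chr16:85900639-85901901) had a peak in each infant library, of 1248, 1242 and 648 bp, in all 3 young adult libraries, of 813, 284 and 583 bp, and in no mature adult library. The call in mature adults was lost without infant replicate 1, 2 or 3 (limma adjusted p = 0.0813, 0.0824 and 0.108) and without young adult replicate 2 or 3 (0.0564 and 0.0515).

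The other genes of this group changed less. Adamts9, with the most peaks of any member, had 35, 31 and 30 in infants, 26, 30 and 23 in young adults and 20, 26 and 25 in mature adults. On the scaled measure it moved by 0.14 and 0.10 and passed neither test. Adamts1, an inhibitor of vessel growth as well as a protease, had 16, 15 and 17, then 13, 18 and 14, then 14, 17 and 15 peaks. These numbers overlapped, and its scaled rise in mature adults (0.47, limma adjusted p = 0.0169) was -0.06 without scaling and was lost without infant replicate 1 or 2 or mature adult replicate 2 (limma adjusted p = 0.0559, 0.0563 and 0.0551). Adamts20 had 8 peaks in each infant library, 7, 5 and 6 in young adults and 4, 4 and 5 in mature adults. It lost its promoter peak in all adult libraries, but its peak number passed in mature adults only without scaling (-0.82, limma adjusted p = 0.00464). Adamts4 held 0 to 4 peaks in a library and passed no test.

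Adamts12 and Adamts7 encode enzymes that cut cartilage oligomeric matrix protein. Adamts12 had 9, 7 and 6 peaks in infants, 3, 2 and 4 in young adults and 3 in each mature adult library. The scaled log2 change was -0.80 ± 0.219 (SE) in young adults (limma adjusted p = 0.0249) and -0.65 ± 0.219 in mature adults (limma adjusted p = 0.0463). The call was lost in young adults without infant replicate 1 or 2 or young adult replicate 1 (limma adjusted p = 0.0827, 0.0604 and 0.0548). In mature adults it was lost without any 1 of the 3 infant and 3 mature adult libraries or young adult replicate 1, with limma adjusted p from 0.0515 to 0.138. The change was smaller and not called with repeated rows kept (-0.26 and -0.29, limma adjusted p = 0.153 and 0.0899) and among the widest 59793 peaks (-0.40 and -0.24, limma adjusted p = 0.184 and 0.413). Adamts7 had 6, 5 and 5, then 3, 4 and 5, then 5, 3 and 4 peaks and passed no test.

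Of the members whose substrates are less well known, Adamts17 fell. Adamts17 (chr7:66839699-67153171), a gene linked to fibrillin matrix, had 23, 22 and 21 peaks in infants, 9, 11 and 11 in young adults and 6, 7 and 9 in mature adults. The ages did not overlap between infants and adults, and the scaled change was -0.65 ± 0.133 (SE; limma adjusted p = 0.00685) and -1.01 ± 0.133 (limma adjusted p = 0.000514), with -1.06 and -1.54 unscaled. It stayed called in all 21 alternatives. Adamts16 had 9, 7 and 7 peaks in infants, 1 in each young adult library and 2, 0 and 0 in mature adults (limma adjusted p = 0.0406 and 0.00867), and as it reached the test through the infant libraries alone, these p-values do not support a fall. Leaving out any 1 of the infant or young adult libraries ended its call in young adults, with limma adjusted p from 0.0834 to 0.105.

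Adamts6, Adamts10 and Adamts18 passed no scaled test. Adamts6 had 15, 14 and 11 peaks in infants, 8, 8 and 7 in young adults and 9, 7 and 9 in mature adults, and passed without scaling at both ages (limma adjusted p = 0.0151 and 0.0179). Adamts10 had 12, 11 and 9, then 9, 10 and 8, then 6, 9 and 8 peaks, and Adamts18 had 9, 10 and 11, then 9, 9 and 8, then 9, 8 and 5. The peak number of Adamts18 fell from a mean of 10.0 in infants to 7.33 in mature adults, which passed on neither scale. Its promoter window was covered over 253, 252 and 212 bases in infants. In adults it was covered over 54 bases in young adult replicate 2 and 0 in the other 5 libraries. Adamts13, whose enzyme cuts von Willebrand factor in plasma, held 0 to 2 peaks in every library. Adamts19 had 1 peak in each of 2 mature adult libraries and none elsewhere, too few for the test.

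**Figure D4:**
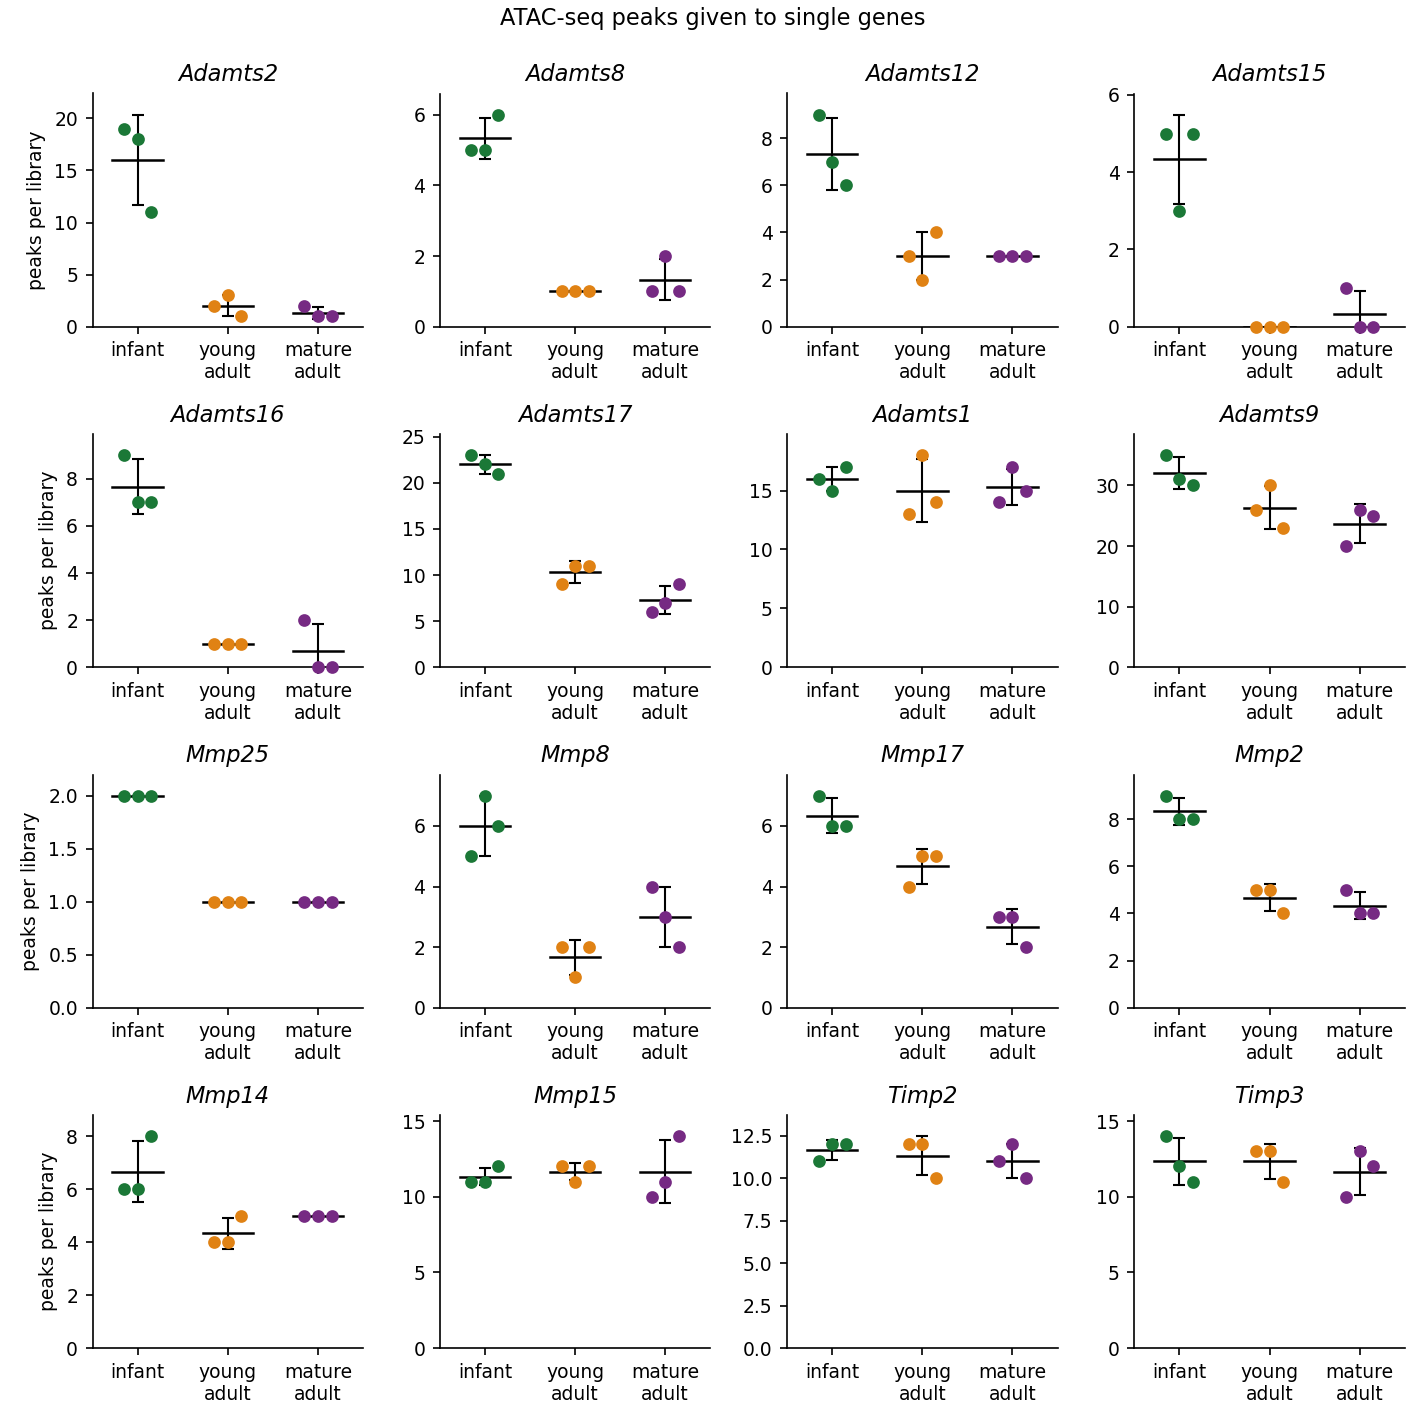
Peaks per library (vertical axes, number, each from 0) given to 16 genes at the 3 ages. Points are libraries, lines the mean and bars the SD of 3. In the first 6 panels, Adamts2 to Adamts17, every infant point lies above every adult point. The same holds for Mmp2, Mmp8, Mmp14, Mmp17 and Mmp25. Adamts1, Mmp15, Timp2 and Timp3 overlap at all ages, and Adamts9 overlaps between infants and young adults. Numbers are not scaled, and whole lists do not overlap either (at least 88856 peaks in infants, at most 68366 in young adults). The share of all genes so separated was not counted. Adamts15 and Adamts16 reached the test through the infant libraries alone.

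Of the gelatinases, which cut denatured and basement membrane collagen, Mmp2 had 9, 8 and 8 peaks in infants, 5, 5 and 4 in young adults and 5, 4 and 4 in mature adults. Infant and adult libraries did not overlap. The scaled change missed the threshold at both ages, at -0.38 ± 0.128 (SE; limma adjusted p = 0.0527) and -0.37 ± 0.128 (limma adjusted p = 0.0506), and the unscaled change passed it, at -0.78 and -0.87 (limma adjusted p = 0.00556 and 0.00252). A region 146 bp inside one end of Mmp2 (chr8:92827212-92827661) had a peak in the infant libraries alone. A region with a peak in all 9 libraries (chr8:92846779-92848021) was wider in infants, with 965, 1068 and 973 bp, than in young adults, with 617, 790 and 399 bp, or mature adults, with 474, 389 and 377 bp. Mmp9 had 2 peaks in 8 libraries and 1 in mature adult replicate 1, so that no change with age could be seen in its number.

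Membrane-type enzymes are anchored to the cell surface, where Mmp14 also activates the precursor of Mmp2. Mmp14 had 6, 6 and 8 peaks in infants, 4, 4 and 5 in young adults and 5 in each mature adult library. The scaled change was -0.17 ± 0.141 (SE) and 0.13 ± 0.141 and did not pass (limma adjusted p = 0.385 and 0.486). Unscaled it was -0.56 and -0.37 and passed in young adults (limma adjusted p = 0.0267 and 0.0727). Its broadest region, chr14:54432182-54433948 inside the gene, had peaks in all 9 libraries, and 2 smaller regions, 695 bp and 1453 bp outside either end of the gene, had peaks in the infant libraries alone. Mmp15 had 11, 11 and 12, then 12, 11 and 12, then 10, 11 and 14 peaks, with overlap at all ages. As a share of the list it rose by 0.45 and 0.55 on the log2 scale (limma adjusted p = 0.0199 and 0.00648), and without scaling the changes were 0.04 and 0.03. The young adult call was lost without infant replicate 1 or 2 or young adult replicate 1 or 3, with limma adjusted p from 0.0541 to 0.0685.

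Mmp17 and Mmp25 are held to the membrane by a lipid anchor. Mmp17 had 7, 6 and 6 peaks in infants, 4, 5 and 5 in young adults and 3, 3 and 2 in mature adults. Each age lay below the one before it, and the scaled change was -0.02 ± 0.160 (SE) in young adults and -0.64 ± 0.160 in mature adults (limma adjusted p = 0.933 and 0.0150). Without infant replicate 1 the latter had a limma adjusted p of 0.0515. Mmp25 had 2 peaks in every infant and 1 in every adult library, the lost one being the region over its promoter (chr17:23644603-23645504), of 837, 763 and 829 bp. Its changes of -0.42 and -0.33 came with limma adjusted p of 0.000653 and 0.000446, and equal numbers within an age leave little spread, so the p is small although the change is. Among the widest 59793 peaks of every library neither Mmp25 call was kept (limma adjusted p = 0.129 and 0.310). Mmp24 had 4 peaks in each infant library and 2 or 3 in the adult ones, and Mmp16 had 9, 7 and 8, then 3, 4 and 8, then 4, 4 and 3, and neither passed after scaling. Mmp24 passed unscaled at both ages (-0.69 and -0.85, limma adjusted p = 0.0133 and 0.00400), and Mmp16 did not (-0.73 and -1.03, limma adjusted p = 0.179 and 0.0541).

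In the chromosome 9 cluster, which holds the collagenases Mmp1a, Mmp1b, Mmp8 and Mmp13, the stromelysins Mmp3 and Mmp10, the elastase Mmp12, the matrilysin Mmp7, and Mmp20 and Mmp27, the 10 genes together held 13, 14 and 13 peaks in infants, 7, 6 and 9 in young adults and 10, 8 and 6 in mature adults. Mmp1a, Mmp1b and Mmp12 had no peak in any library. Of the 18 merged regions given to the cluster, 6 lay inside a gene, 4 had a peak in all 9 libraries and 2 in the infant libraries alone. Mmp8, a collagenase best known from neutrophils, had 5, 7 and 6 peaks in infants, 2, 1 and 2 in young adults and 4, 3 and 2 in mature adults. It fell in young adults, with a scaled log2 change of -1.24 ± 0.301 (SE; limma adjusted p = 0.0148), and did not pass in mature adults (-0.43, limma adjusted p = 0.281). All 6 of its regions lay outside the gene, and the young adult call was lost without infant replicate 2 (-1.12, limma adjusted p = 0.0521), with assignment within 10 kb (-1.53, limma adjusted p = 0.0860) and among the widest 59793 peaks of every library (-0.49, limma adjusted p = 0.408). Mmp7 had 1 peak in every library, and its scaled change of 0.28 and 0.36 is what a constant number becomes in a shorter list. Mmp3 had 1, 2 and 1 peaks in infants and 0 in all adult libraries, Mmp13 had 3, 2 and 2, then 1, 2 and 2, then 1 in each, which passed only unscaled and in mature adults (-0.90, limma adjusted p = 0.0286), and Mmp27 had 2 or 3 in every library. Mmp10 and Mmp20 had 1 peak in 1 adult library each.

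Of the remaining Mmp genes, Mmp28, whose product epilysin is made in epithelium and lung macrophages, had 8 peaks in each infant library, 8, 9 and 8 in young adults and 8, 7 and 8 in mature adults. The number was nearly constant, and the scaled change of 0.45 at both ages (limma adjusted p = 0.00467 and 0.00400) was 0.05 and -0.06 without scaling. Behind the constant number, peaks moved. The promoter window was covered over 183, 182 and 160 bases in infants, 182 and 163 in young adult replicates 1 and 2 and 0 in the other 4 adult libraries, while a region 1926 bp inside the gene (chr11:83460972-83461256) had a peak of 225 to 284 bp in all 6 adult and in no infant library. Mmp11 had 2, 1 and 1 peaks in infants and 1 in each adult library, with its promoter covered in all 9. Mmp19 had 1 or 2 peaks in every library, and Mmp23 had 2, 1 and 1 in infants, 3 in young adult replicate 2 and 0 in the other adult libraries. Mmp21 had 1 peak in infant replicate 1.

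Of the inhibitor genes only Timp2 and Timp3 had enough peaks for the test. Timp2, which both blocks Mmp2 and helps Mmp14 activate it, had 11, 12 and 12 peaks in infants, 12, 12 and 10 in young adults and 11, 12 and 10 in mature adults. Timp3, which binds the matrix and inhibits several ADAMTS enzymes and signalling through the receptor Kdr, had 14, 12 and 11, then 13, 13 and 11, then 10, 13 and 12. The ages overlapped for both genes. As a share of the list both rose in young adults (Timp2 0.36, limma adjusted p = 0.0279; Timp3 0.41, limma adjusted p = 0.0172) and in mature adults (0.44 and 0.45, limma adjusted p = 0.0103 and 0.00996). Unscaled, the changes were -0.04 and 0.00 in young and -0.08 for both in mature adults. Among the widest 59793 peaks of every library Timp3 was still higher (0.73 at both ages, limma adjusted p = 0.0260 and 0.0209), and Timp2 was not called (0.27 and 0.23, limma adjusted p = 0.0547 and 0.0664). Both young adult calls were lost without young adult replicate 1 or 2 and without infant replicate 2, that of Timp2 also without infant replicate 1 and that of Timp3 also without infant replicate 3, with limma adjusted p from 0.0521 to 0.0867. Of their regions, 8 of 14 at Timp2 and 8 of 17 at Timp3 had a peak in all 9 libraries, among them those over the promoters.

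Timp1, Timp3 and Timp4 lie within the genes Syn1, Syn3 and Syn2, so peaks near them can be given to the host gene, and Timp1 and Timp4 reached too few peaks for the test. Timp1 had 0, 1 and 0, then 1, 0 and 1, then 1, 0 and 1 peaks. Its promoter nevertheless had a peak in all 9 libraries, of which 5 were given to Timp1 and 4 to Syn1. The Timp4 promoter had a peak in the 3 infant libraries, over 300, 254 and 255 bases, and in none of the 6 adult ones. Of these 3 peaks 1 was given to Timp4 and 2 to Syn2. The merged region, chr6:115251566-115252460, was the only region given to Timp4.

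Between the adult ages no member was called, where 0.937% of all genes tested were (136 of 14507). At an unadjusted limma p below 0.05 there were 5 (Adamts17, Adamts20, Mmp7, Mmp8 and Mmp17), against 22.1% of all genes, and each had a limma adjusted p of 0.221. A few members passed in other alternatives: Adamts5 with assignment within 10 kb (-2.17, limma adjusted p = 0.00406), Adamts20 by covered bases (-0.67, limma adjusted p = 0.0218) and Adamts16 without mature adult replicate 1 (-1.69, limma adjusted p = 0.000757) and with young adult replicate 3 left out as well (-1.70, limma adjusted p = 0.00190), all lower in mature adults.

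Seen by region, the 46 genes held 368 of the 111761 merged regions given to genes, 224 of them inside a gene body. Of the 368, 104 had a peak in all 9 libraries (28.3%, against 34.6% of all regions), 50 in the 3 infant and no adult library (13.6% against 9.46%) and 3 in the 6 adult and no infant library (0.815% against 0.716%). By family, with no test between them, infant-only regions made up 15.4% of 240 Adamts, 11.5% of 96 Mmp and 6.25% of 32 Timp regions, and regions in all 9 libraries 23.3%, 33.3% and 50.0%. Among the widest 59793 peaks of every library the latter shares lay closer together, at 27.1%, 28.4% and 35.5%, and the infant-only shares were 14.4%, 8.64% and 0 of 31 Timp regions. In that setting the shares over all genes were 37.8% in all 9 libraries and 4.72% infant-only. At least 1 infant-only region was found in 24 of the 46 genes (52.2%), where 25.3% of all genes had one, and a region in all 9 libraries in 29 (63.0% against 60.8%). An adult-only region was found in 3 genes (6.52% against 3.00%). Genes with many regions have more chances to hold one, and no test was made of these shares. Fibroblast and mural markers lost peaks in the same libraries, as given with the family sums.

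**Figure D5:**
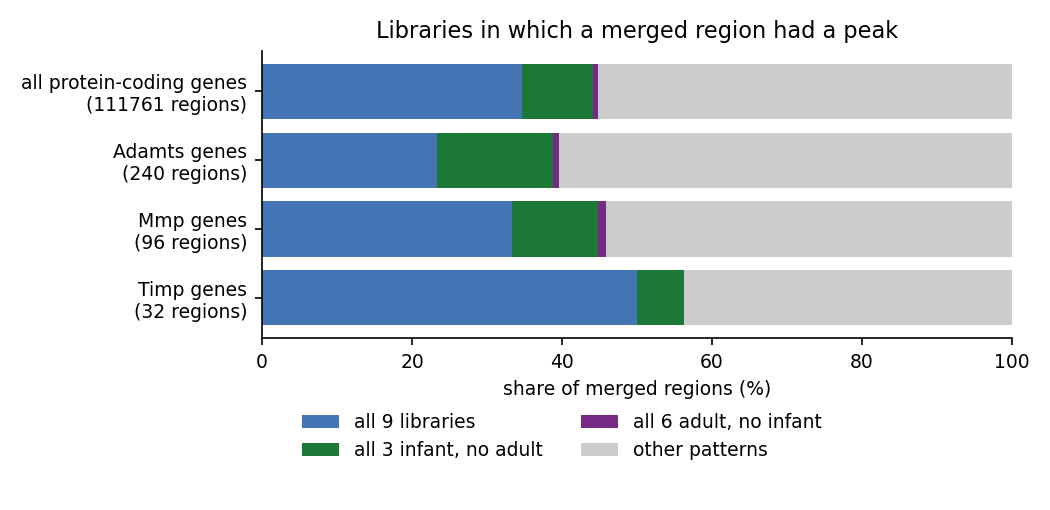
Share of merged regions (horizontal axis, percent) with a peak in all 9 libraries, in the infant libraries alone (all 3), in all 6 adult and no infant libraries, or in another pattern, for all genes and for the 3 families. The infant-only share is 15.4% in Adamts and 6.25% in Timp regions, against 9.46% for all genes.

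Of the 50 infant-only regions, 31 lay inside a gene and 10 no more than 1 kb from a gene end, beside 224 and 47 of all 368 regions and 53 and 18 of the 104 with a peak in all 9 libraries. Their median merged width was 554 bp against 802 bp for the 104 regions of all 9 libraries. The broadest 6 by width rank within their library, 1 per gene, were at Adamts8, Mmp25, Adamts2 and Adamts20, named with their genes, and at Adamts6 (chr13:104467418-104468245, 701, 443 and 822 bp) and Adamts17 (chr7:67050854-67051615, 662, 586 and 615 bp), both inside the gene. The 4 infant-only regions of Adamts20 include the one over its promoter (chr15:94403737-94404759, 726, 881 and 585 bp). The remaining infant-only regions lay at Adamts1, Adamts5, Adamts7, Adamts9, Adamts10, Adamts12, Adamts14, Adamts15, Adamts16, Mmp2, Mmp3, Mmp8, Mmp14, Mmp16, Mmp17, Mmp24, Timp3 and Timp4. The 3 adult-only regions were the one in Mmp28, one inside Adamts12 (chr15:11306100-11306809, 306 to 709 bp in the 6 adult libraries) and one 23041 bp outside Adamts9 (chr6:92749367-92749950, 348 to 530 bp).

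Other genes of matrix proteolysis were counted in 6 lists, to be read beside the 9.26% and 13.9% of all genes tested that were lower on both scales in young and mature adults. In the plasminogen system, whose protease plasmin activates several Mmp precursors, 1 of 9 tested genes fell on both scales at each adult age: Serpine2, an inhibitor of plasminogen activators and thrombin, with 13, 11 and 11 peaks in infants, 4, 4 and 3 in young adults and 5, 4 and 3 in mature adults (-1.16 and -0.95, limma adjusted p = 0.00211 and 0.00539). Of the ADAM proteases, which shed proteins from cell surfaces, 2 of 9 fell at both ages, among them Adam12, with 27, 26 and 23, then 12, 11 and 13, then 9, 11 and 13 peaks, and Adam28. Of the ADAMTS-like proteins, which lack the protease domain, 1 of 7 fell in young adults (Adamtsl1) and 1 in mature adults (Adamtsl3). Of cathepsins and further matrix proteases, 2 of 11 fell at each age, and Htra1 was lower at both. Rises were seen after scaling only, where 26.1% and 30.4% of all genes tested rose in young and mature adults. In the plasminogen system 3 and 6 of 9 rose so, and of the ADAMTS-like proteins 2 and 3 of 7. Of the ADAM proteases and of the cathepsin list, 0 rose in young adults and 1 in mature adults.

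Of the cell-surface and other regulators of these enzymes, 2 of 10 were lower on both scales in young adults and 5 in mature adults. After scaling 1 of the 10 rose at each adult age. Lrp1, the receptor that clears several Mmp, ADAMTS and Timp proteins from the matrix, had 11, 10 and 11 peaks in infants, 3, 3 and 1 in young adults and 2, 3 and 2 in mature adults (-1.70 and -1.50, limma adjusted p = 0.00524 and 0.00821). Reck, a membrane-anchored inhibitor of Mmp enzymes, had 6 in each infant library, 4, 3 and 2 in young adults and 2, 2 and 3 in mature adults, and fell in mature adults (-0.74, limma adjusted p = 0.0328). Itgb3, an integrin chain of sprouting endothelium, had 7, 9 and 9, then 7, 7 and 5, then 2, 3 and 2 peaks, and was the one listed gene called between the adult ages (limma adjusted p = 0.0471). Among proteoglycans and other substrates, 1 of 9 fell in young and 5 in mature adults, and 1 of the 9 rose after scaling at each age. Thbs2, a thrombospondin, had 12, 11 and 9 peaks in infants and 1 or 2 in each adult library (-2.27 and -2.17, limma adjusted p = 0.000653 and 0.000572). Fn1, the gene of fibronectin, had 6, 4 and 6, then 3, 3 and 4, then 2, 1 and 1 peaks and fell in mature adults (-1.24, limma adjusted p = 0.00715). By the limma test 0 of the 55 genes tested in these 6 lists were higher on both scales, where only 1.11% and 1.42% of all genes were. At an unadjusted limma p below 0.05 there were 1 unscaled rise in young and 2 in mature adults. How many of all genes rose at that unadjusted threshold was not counted.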

How the data were processed

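ATAC-seq peak lists of sorted mouse lung endothelial cells were used, 3 per age. Per the file headers, the deposited lists give chromosome, start and end in bases of build mm10 and no count, score or other value per peak. Reads passed through cutadapt, Bowtie2 and Picard, per the submitters' processing notes, which give no versions. Peak caller, threshold and read shift are each not given in the sources used here. Whether starts count from 0 or 1 is not stated, so positions can be off by 1 bp. Between 31.5% and 39.5% of the rows of a list repeated an interval already listed, and each interval was counted once.

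Genes came from a RefSeq table of GRCm38.p6 (21883 protein-coding genes placed on a chromosome), without exons. A peak went to the gene body around its centre, the shortest where several overlapped, and otherwise to the nearest gene end within 100 kb. Peak numbers were scaled to the library total and 0.5 was added before taking log2. The moderated two-sided test of limma 3.58.1 (R 4.3.3) with a trend was run in 1 fit of 9 libraries on the 14507 genes whose mean reached 1 peak, with Benjamini-Hochberg adjustment over all of them. The procedure was also run on simulated binomial counts without added spread between libraries, a setting that cannot vouch for the calls given here. Regions are peaks of all libraries merged at an overlap of 1 bp and given to genes by the same rule. Promoter windows were taken from RefSeq for the 32 members listed there. Not in that table were Mmp2, Mmp9, Mmp16, Mmp17, Mmp19, Adamts4, Adamts5, Adamts6, Adamts7, Adamts8, Adamts10, Adamts15, Adamts16 and Adamts19. Python 3.11.15 with pandas 2.3.3 and matplotlib 3.10.9 did the rest.

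The members, the other gene lists and the tests were chosen with earlier results of these data known. All members are accounted for. Values per library are given for those called in any comparison, for the Timp genes, Mmp2, Mmp9, Mmp14, Mmp15 and Adamts1, and for genes with a region in all libraries of 1 age class only. Regions are named by width rank, up to 6 per class, and further list genes by a call on both scales. Alternatives covered scaling, repeated rows, list length, the 0.5, the filter, the assignment, covered bases, the replicate block and leaving out libraries. Sequence of regions outside the promoter table was not used here.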

Additional observations from a re-analysis of the deposited data

How the results depend on the processing

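Adamts2 and Adamts17 kept their direction and their call at both adult ages in all 21 alternatives. Without scaling 0 members were higher in young and in mature adults, 15 were lower in mature adults, the number of genes called in young adults was 2688 in place of 5141, and these changes turned round: Timp2 to -0.044 in young adults, and Adamts1 to -0.062, Mmp28 to -0.060, Timp2 to -0.084 and Timp3 to -0.078 in mature adults. With the rows as deposited, 2368 genes and 1 member higher were called in young adults, 3 members higher in mature adults, and 83 genes between the adult ages in place of 136. With the widest 59793 peaks of every library, 1399 genes, 5 members lower in place of 8 and 2 higher in place of 5 were called in young adults, 2292 genes in place of 6430 and 3 members higher in place of 6 in mature adults, and 33 regions were infant-only in place of 50 and 12 adult-only in place of 3. Those 33 and 12 were 11.3% and 4.10% of the members' regions in that setting, against 4.72% and 3.22% for all genes. With a filter at a mean of 3 peaks, which leaves fewer genes to test, 1619 and 2529 genes were called and 5 members were lower at either age, in place of 8 and 9, with 17 genes between the adult ages. Assignment within 10 kb gave 5 members lower in young adults and 1 between the adult ages. By covered bases 3 members were higher in young adults, 16 lower in mature adults and 1 lower between the adult ages. With both libraries of narrow peaks (young adult replicate 3, mature adult replicate 1) left out, 574 genes and 1 member were called between the adult ages. Where not stated, the cause was not tested.

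Leaving out 1 library at a time gave 5 to 9 members lower and 2 to 6 higher in young adults, 6 to 10 lower and 5 to 7 higher in mature adults, 0 to 1 lower between the adult ages, 101 to 433 genes called between the adult ages, 51 to 67 infant-only and 3 to 5 adult-only regions. The fewest members in young adults came without infant replicate 2, the most genes between the adult ages without young adult replicate 3, and the most infant-only regions without infant replicate 3.

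Replicate numbers did not pair the libraries: deviations from the group means correlated at -0.17 to 0.17 over 9 pairs with the same number and at -0.23 to 0.29 over 18 pairs with different numbers. With the number as a replicate block, 4946, 6164 and 67 genes were called in the 3 comparisons, and 9 and 8 members were lower in young and mature adults. Under it Adamts5 and Adamts12 were not called in mature adults (limma adjusted p = 0.0725 and 0.0629).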

Other observations

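Regions with a peak in all 9 libraries were also narrower in adults. The 104 such regions at the 46 genes had a mean width of 706 ± 22.9 bp in infant, 618 ± 47.5 bp in young adult and 587 ± 46.1 bp in mature adult libraries (SD, n = 3 each). Over all 38713 such regions given to genes the means were 779 ± 30.7, 681 ± 45.1 and 650 ± 38.0 bp. The members' regions therefore narrowed along with those of all genes. By family, the means at the 3 ages were 738, 664 and 635 bp for 56 Adamts regions, 673, 561 and 508 bp for 32 Mmp regions and 659, 569 and 577 bp for 16 Timp regions. Widths depend on depth and on the peak caller, and neither is known here.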
